A study of Homo sapiens with 16 samples.

Results

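The 9 genes described here mark the red cell and platelet lineages. They are *KLF1*, *GYPC*, *HBG1*, *HBG2*, *HBA1*, *HBA2*, *ITGA2B*, *PF4* and *GP9*. They were chosen by symbol, with earlier results of these data known, from the 60357 genes listed in each count table. *KLF1* encodes an erythroid transcription factor, *GYPC* the red cell membrane protein glycophorin C, *HBG1* and *HBG2* the gamma globins of fetal haemoglobin, and *HBA1* and *HBA2* alpha globin. *ITGA2B* encodes the alpha chain of the platelet fibrinogen receptor, *PF4* a chemokine of platelet granules, and *GP9* a subunit of the platelet receptor for von Willebrand factor. The data are RNA-seq read counts of Kasumi-1 and SKNO-1, human acute myeloid leukaemia lines with the t(8;21) translocation, which joins *RUNX1* to *RUNX1T1* (also called *ETO*). Both lines, labelled as wild type, were exposed to lipid nanoparticles (LNPs) at 2 µg/ml for 24 h, washed and harvested on day 3, and SKNO-1 was grown with GM-CSF. LNP/siRE-mod carried a chemically modified siRNA against *RUNX1/ETO* and LNP/siMM-mod its modified mismatch control. Each line has 3 libraries with each label, which gives 12 libraries, and no untreated library was used.

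Erythrocytes and megakaryocytes arise from a shared progenitor whose programme is driven by GATA1 with TAL1, LMO2 and LDB1. In that programme KLF1 acts mainly on the erythroid side, where it activates globin genes, while FLI1 and NFE2 act in megakaryocytes. RUNX1 is needed for megakaryocyte maturation and binds DNA through the same domain that the fusion protein keeps. *ITGA2B* and *GYPC* are also transcribed in cells that are not committed to either lineage, so neither alone defines a cell type.

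The promoters of the 3 members with enough reads for a test are shown as context for the levels that follow. RefSeq (GRCh38.p14) gave promoters for 4 of the 9 genes, *KLF1*, *GYPC*, *ITGA2B* and *GP9*. The 250 bases before the annotated start were chr2:126655908-126656157 on the plus strand for *GYPC*, chr17:44389650-44389899 on the minus strand for *ITGA2B* and chr19:12887202-12887451 on the minus strand for *KLF1*. Each is printed 5′ to 3′ in the direction of the gene, with capitals at matches, on either strand, of GATAA (GATA factors), TGTGGT (RUNX factors), GGAAGT (ETS factors) and CACCC (KLF factors).
GYPC: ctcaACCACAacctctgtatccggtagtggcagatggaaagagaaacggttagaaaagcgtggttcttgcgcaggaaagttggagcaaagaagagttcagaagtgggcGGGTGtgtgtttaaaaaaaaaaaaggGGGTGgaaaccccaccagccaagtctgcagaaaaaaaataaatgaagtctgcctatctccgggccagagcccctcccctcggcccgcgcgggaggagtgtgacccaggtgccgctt
ITGA2B: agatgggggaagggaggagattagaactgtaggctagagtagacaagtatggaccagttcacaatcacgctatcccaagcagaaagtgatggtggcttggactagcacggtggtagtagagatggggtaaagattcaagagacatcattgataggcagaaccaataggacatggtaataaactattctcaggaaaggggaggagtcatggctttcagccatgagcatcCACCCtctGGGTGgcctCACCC
KLF1: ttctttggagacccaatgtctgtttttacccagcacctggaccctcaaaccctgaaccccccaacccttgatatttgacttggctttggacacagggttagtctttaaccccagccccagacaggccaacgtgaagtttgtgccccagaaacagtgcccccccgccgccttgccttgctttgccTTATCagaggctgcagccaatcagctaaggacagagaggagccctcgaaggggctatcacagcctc

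The *GYPC* window held 1 match of TGTGGT, 246 to 241 bases before the start, and 2 of CACCC. The *ITGA2B* window held 3 matches of CACCC, all within 22 bases of the RefSeq start, and the *KLF1* window 1 match of GATAA, 66 to 62 bases before it. No match of GGAAGT lay in these 3 windows, and none of the capitals mark overlapping motifs. Among 35116 promoter windows of the same length, 20.4% held GATAA, 11% TGTGGT, 19.5% GGAAGT and 54.7% CACCC. The RefSeq start of *ITGA2B* lies 144 bases upstream of the counted gene model given below and that of *KLF1* 2 bases upstream of it. The counted model of *GYPC* begins within its window, at position 126656133. These matches describe letters in the reference and carry no measurement of binding.

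Total counts on genes ranged from 60559466 to 147990959 per library with a median of 89160101. Levels are given as CPM (reads of a gene relative to the total of its library) normalised by TMM over the 12 libraries, unless FPKM (the same per length of transcript) is named. *RUNX1T1*, whose reads include the fusion transcript, did not separate the labels. In Kasumi-1 it was at 296, 92.7 and 161 CPM under the siMM-mod label (replicates 1 to 3, as in all values below) and at 44.3, 159 and 37.2 CPM under the siRE-mod label. In SKNO-1 it was at 329, 297 and 127 against 123, 164 and 40.4 CPM. The labelled groups overlapped in both lines. *CD34*, a stem and progenitor surface marker, was at 117 to 420 CPM in 6 libraries and at 0.107 to 0.626 CPM in the other 6, and each of these sides holds both line labels and both siRNA labels. Correlations between libraries over all genes, on the log2 scale, were 0.955 to 0.996 within a side and 0.798 to 0.837 across the sides, in 30 and 36 pairs. Whether each library received the siRNA, or came from the line, that its label names could not be told from these files, so fold changes by label compare labels and may not measure the treatment. Replicates are therefore named below as labelled, every value is given, and libraries are also read in the order of *CD34* and then *RUNX1T1*. That order is a description, so no mean or test is attached to it. The share of all genes that separate by *RUNX1T1* within a *CD34* side was not computed. The libraries called CD34-expressing are SKNO-1 siMM-mod 1, 2 and 3, SKNO-1 siRE-mod 1 and Kasumi-1 siMM-mod 1 and 2. Those called CD34-low are Kasumi-1 siMM-mod 3, Kasumi-1 siRE-mod 1, 2 and 3 and SKNO-1 siRE-mod 2 and 3.

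The leukaemic myeloid markers *PTPRC*, *CD33*, *KIT* and *MPO* were at 38 CPM or more in every library, and 3 of these 4 separated the *CD34* sides. Such separation was common. Of 15863 genes past a cutoff of 600 reads, 15.6% were higher in every CD34-expressing library and 17.5% in every CD34-low one. *MPO*, the granule peroxidase, was at 10400 to 22600 CPM in the CD34-expressing and 1780 to 5740 CPM in the CD34-low libraries, *KIT*, the stem cell factor receptor, at 680 to 997 and 96.7 to 515 CPM, and *PTPRC*, the pan-leukocyte CD45, at 67.5 to 80 and 184 to 440 CPM. Of 3 eosinophil markers, *IL5RA* was at 0 to 0.178 CPM in the CD34-expressing and 36.2 to 67.9 CPM in the CD34-low libraries, *CLC* at 0 to 0.382 and 3.17 to 80.7 CPM, and *PRG2* overlapped at 0.217 to 193 and 6.17 to 88.8 CPM. Of the markers of erythroid cells, *HBB*, *ALAS2* and *AHSP* were under 1 CPM in every library, with *AHSP*, the alpha globin chaperone, at 0 reads in all 12. Of the 4 megakaryocyte markers, *ITGB3*, *PPBP* and *TUBB1* stayed under 1 CPM, and *GP1BA* ranged from 0.671 to 3.25 CPM. In bulk RNA, fewer cells of a type and less RNA per cell cannot be told apart.

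The 9 members fell into abundant, scarce and nearly absent transcripts. *GYPC* (33.7 to 261 CPM) and *ITGA2B* (1.47 to 90.6 CPM) were read in every library. *KLF1* was low throughout, at 0.755 to 2.34 CPM. *HBA1* had 153 reads and *HBA2* 124 over the 12 libraries, *GP9* 19, *HBG1* 2, *HBG2* 1 and *PF4* 0. *GYPC*, *ITGA2B* and *KLF1* were thus the 3 members that passed the minimum of 600 reads in total.

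*GYPC* lies on chromosome 2 (126656133 to 126696667, plus strand, GRCh38), and its reads were counted over 7 merged exons. In Kasumi-1 it was at 246, 158 and 70.1 CPM in the libraries labelled siMM-mod 1 to 3. The libraries labelled siRE-mod 1 to 3 had 33.7, 51.5 and 37.9 CPM. All 3 of the former lay above all 3 of the latter. In SKNO-1 the values were 226, 261 and 99.7 CPM under the siMM-mod label and 98.3, 51.7 and 43.8 CPM under the siRE-mod label. These groups did not overlap either, though SKNO-1 siMM-mod 3 and siRE-mod 1 were almost equal. Groups without overlap that were lower under siRE-mod made up 11.9% of the genes tested in Kasumi-1 and 6.46% in SKNO-1.

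By label, the log2 fold change of *GYPC*, siRE-mod against siMM-mod, was -1.95 (SE 0.48) in Kasumi-1 and -1.59 (SE 0.46) in SKNO-1. The edgeR quasi-likelihood test with Benjamini-Hochberg adjustment over all genes gave adjusted p = 0.252 and 0.466 (unadjusted p = 0.00632 and 0.0109), so neither passed 0.05. No gene passed in these fits (percent called 0 for both, of 13608 genes in Kasumi-1 and 13628 in SKNO-1), and an unadjusted p under 0.05 was given to 2435 and 1455 of them. DESeq2, the tool of the study, called *GYPC* in both lines (adjusted p = 0.00133 and 0.0224), where it called 8.51% and 2.73% of the genes. The difference between the lines was 0.35 (SE 0.69, edgeR adjusted p = 1).

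Read by *CD34* and *RUNX1T1*, *GYPC* formed descending steps. The 3 CD34-expressing libraries with the most *RUNX1T1* had 226 to 261 CPM and the other 3 had 98.3 to 158 CPM. The CD34-low libraries had 51.5 to 70.1 CPM with higher and 33.7 to 43.8 CPM with lower *RUNX1T1*. The closest libraries across the *CD34* sides differed 1.4-fold, and those across the *RUNX1T1* steps 1.43-fold in the CD34-expressing and 1.18-fold in the CD34-low libraries. By label, the medians ran from SKNO-1 siMM-mod (226 CPM) through Kasumi-1 siMM-mod (158 CPM) and SKNO-1 siRE-mod (51.7 CPM) to Kasumi-1 siRE-mod (37.9 CPM), and each group overlapped its neighbour in this order.

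**Figure D1:**
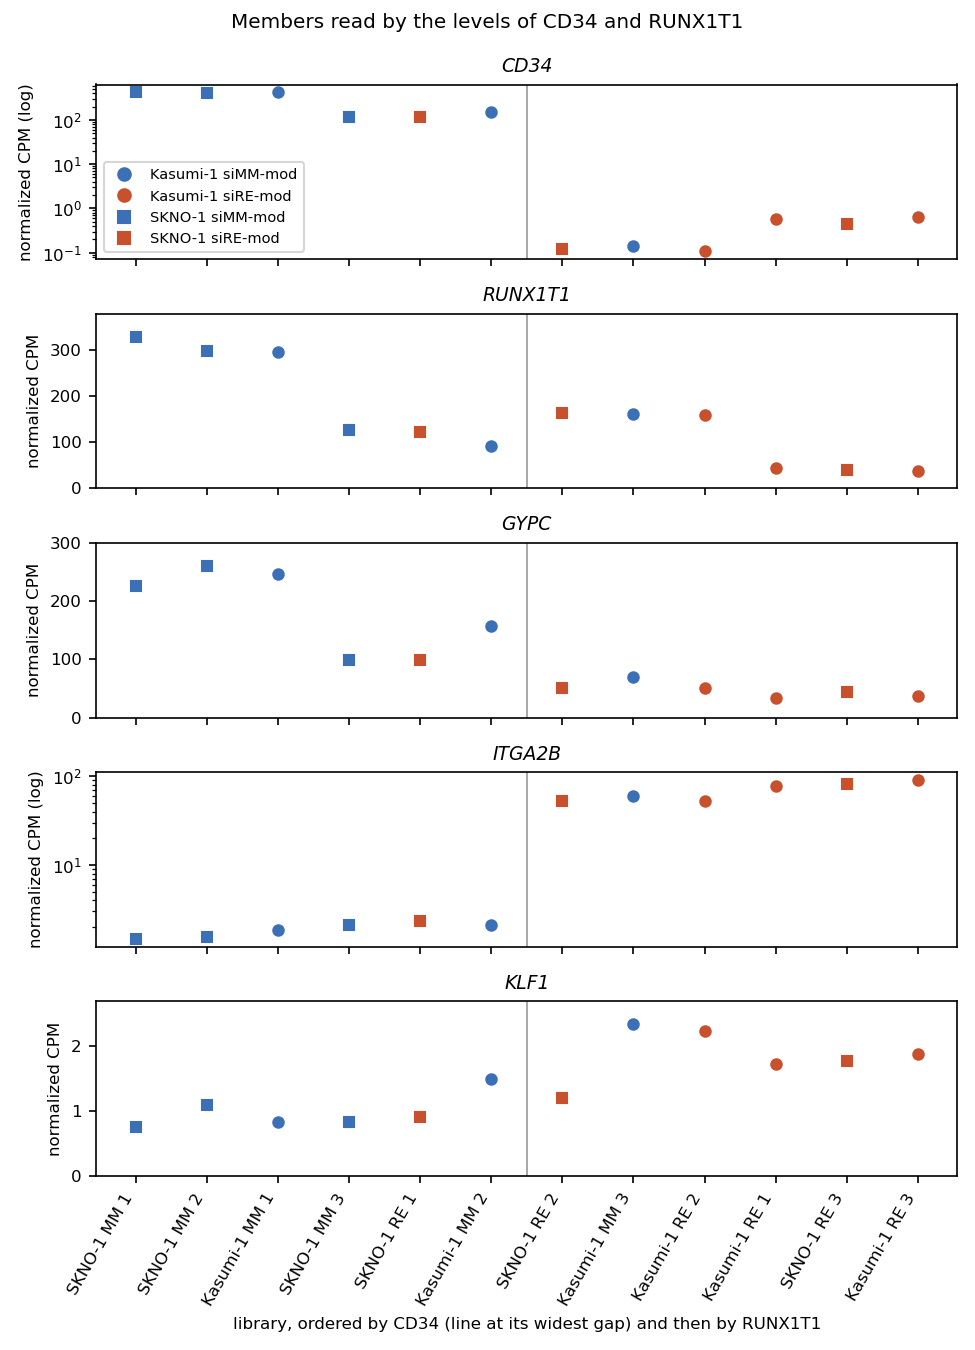
Normalized CPM of *CD34*, *RUNX1T1*, *GYPC*, *ITGA2B* and *KLF1* (vertical axes, logarithmic where marked) in the 12 libraries (horizontal axis, MM and RE for siMM-mod and siRE-mod), with 1 point per library. *GYPC* is at 226 to 261 CPM in the 3 leftmost and at 33.7 to 43.8 CPM in the 3 rightmost libraries, without a steady fall between neighbours. *ITGA2B* is at 1.47 to 2.37 CPM left of the grey line and at 53.1 to 90.6 CPM right of it, and *KLF1* overlaps between the sides.

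*ITGA2B* lies on chromosome 17 (44372180 to 44389505, minus strand) and was counted over 23 merged exons. In Kasumi-1 it was at 1.86, 2.09 and 59.4 CPM in the libraries labelled siMM-mod 1 to 3 and at 78.6, 53.2 and 90.6 CPM under the siRE-mod label. The labelled groups overlapped, because siMM-mod 3 lay above siRE-mod 2, while 9.71% of the genes tested were without overlap and higher under siRE-mod. In SKNO-1 it was at 1.47, 1.54 and 2.12 CPM under the siMM-mod label and at 2.37, 53.1 and 82.8 CPM under the siRE-mod label. Here the groups did not overlap, as in 5.62% of the genes tested that were higher under siRE-mod, but siRE-mod 1 stood near the siMM-mod libraries and far below siRE-mod 2 and 3.

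The log2 fold change of *ITGA2B* by label was 1.84 (SE 1.36) in Kasumi-1 and 4.73 (SE 1.18) in SKNO-1, and edgeR gave adjusted p = 0.479 and 0.466. DESeq2 called it in SKNO-1 (adjusted p = 3.40e-05) and not in Kasumi-1 (adjusted p = 0.433). With the replicate number as a block, the Kasumi-1 change was 3.77. The difference between the lines was 2.94 (SE 1.86, edgeR adjusted p = 1) and 0.18 with that block, and DESeq2 called 0.801% of the genes, *ITGA2B* not among them, for this difference. In Kasumi-1 a single library decided the value, which was 5.23 without siMM-mod 3 (edgeR adjusted p = 2.88e-04). In SKNO-1 the change stayed at 4.03 to 5.27 with any library left out, and it passed the threshold without siRE-mod 1 (5.27, edgeR adjusted p = 3.56e-04). In the same fits *GYPC* was at -2.30 and -2.05 (edgeR adjusted p = 0.00204 and 0.0213), and 4250 and 2535 genes were called in all. Every siMM-mod library left in those fits was CD34-expressing and every siRE-mod library CD34-low. There the siRNA label and the *CD34* side cannot be told apart.

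*ITGA2B* followed *CD34* far more widely than *GYPC* did, and in the opposite direction. All 6 CD34-low libraries lay above all 6 CD34-expressing ones, and the closest 2 differed 22.4-fold. *IL5RA*, *CLC* and *PTPRC* were also higher, and *MPO* and *KIT* lower, in every CD34-low library, and their part in the differences of *GYPC* and *ITGA2B* was not tested. On each side the libraries with less *RUNX1T1* were higher, at 2.09 to 2.37 against 1.47 to 1.86 CPM among the CD34-expressing and at 78.6 to 90.6 against 53.1 to 59.4 CPM among the CD34-low libraries. The medians by label ran from Kasumi-1 siRE-mod (78.6 CPM) through SKNO-1 siRE-mod (53.1 CPM) and Kasumi-1 siMM-mod (2.09 CPM) to SKNO-1 siMM-mod (1.54 CPM), and each group overlapped the next.

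Levels of different genes can be compared per length, on the FPKM deposited by the authors. In the CD34-expressing libraries *GYPC* was at 28.2 to 64.5 FPKM and *ITGA2B* at 0.237 to 0.442 FPKM. In the CD34-low libraries with more *RUNX1T1*, *GYPC* was still the higher, at 14.4 to 18.2 against 9.61 to 10.5 FPKM. In those with less *RUNX1T1* the order of the genes was the other way round, with *ITGA2B* at 15.5 to 18.1 FPKM and *GYPC* at 11.1 to 12.6 FPKM. *KLF1* was below *GYPC* in all 12 libraries, at 0.441 to 1.51 FPKM.

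*KLF1* lies on chromosome 19 (12884422 to 12887199, minus strand) and was counted over 3 merged exons. In Kasumi-1 it was at 0.84, 1.49 and 2.34 CPM under the siMM-mod label and at 1.73, 2.23 and 1.88 CPM under the siRE-mod label. In SKNO-1 it was at 0.755, 1.1 and 0.827 CPM and at 0.905, 1.2 and 1.78 CPM. The labelled groups overlapped in both lines. The log2 fold change was 0.33 (SE 0.41, edgeR adjusted p = 0.657) in Kasumi-1, 0.53 (SE 0.49, edgeR adjusted p = 0.707) in SKNO-1 and 0.22 (SE 0.58, edgeR adjusted p = 1) for their difference, and DESeq2 called none of the 3. These libraries held 53 to 291 reads of *KLF1* each.

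By *CD34*, *KLF1* ranged from 0.755 to 1.49 CPM in the CD34-expressing and from 1.2 to 2.34 CPM in the CD34-low libraries, with overlap through Kasumi-1 siMM-mod 2 and SKNO-1 siRE-mod 2. It did not order by *RUNX1T1* on either side. The medians by label ran from Kasumi-1 siRE-mod (1.88 CPM) through Kasumi-1 siMM-mod (1.49 CPM) and SKNO-1 siRE-mod (1.2 CPM) to SKNO-1 siMM-mod (0.827 CPM), each overlapping the next.

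**Figure D2:**
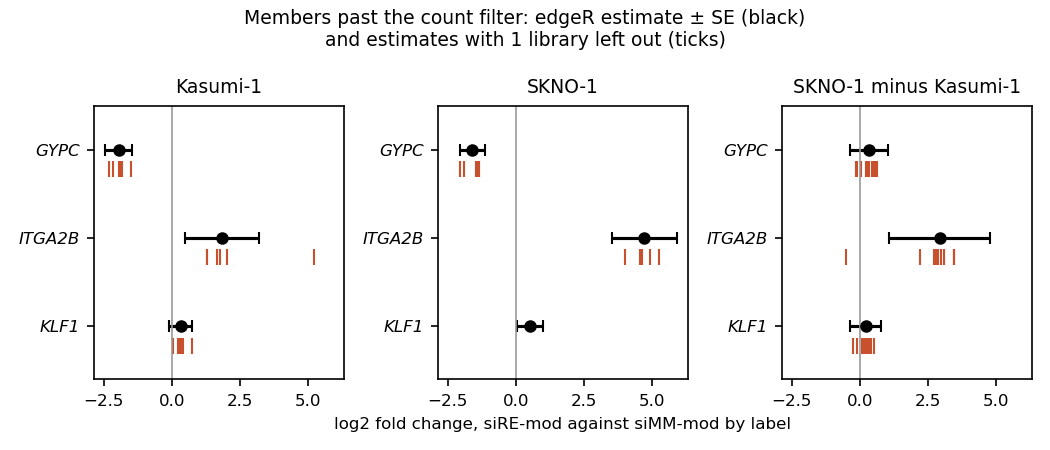
Log2 fold changes of siRE-mod against siMM-mod by label (horizontal axis) for the 3 members past 600 reads, in Kasumi-1, in SKNO-1 and as SKNO-1 minus Kasumi-1. Black points and bars are the edgeR estimate and its SE, and each tick is the estimate with 1 library left out (*KLF1* has no ticks in SKNO-1, where it then fell under 600 reads). The separate tick of *ITGA2B* at 5.23 in Kasumi-1 is the fit without siMM-mod 3.

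The globin members were read at trace levels. *HBA1* (chromosome 16, 176680 to 177522) and *HBA2* (chromosome 16, 172876 to 173710), both on the plus strand, are nearly identical copies, so the split of reads between them is uncertain. In Kasumi-1, *HBA2* was at 0.0136, 0.0127 and 0.0541 CPM under the siMM-mod label and at 0.0247, 0.0153 and 0 CPM under the siRE-mod label. In SKNO-1 it was at 0.228, 0.188 and 0.234 CPM and at 0.148, 0.185 and 0.261 CPM. Every SKNO-1 library was above every Kasumi-1 library, with 112 reads in the 6 of SKNO-1 and 12 reads in the 6 of Kasumi-1. This held among the CD34-expressing libraries (0.148 to 0.234 in SKNO-1 against 0.0127 to 0.0136 CPM in Kasumi-1) and among the CD34-low ones (0.185 to 0.261 against 0 to 0.0541 CPM).

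*HBA1* showed the same order with an overlap. In Kasumi-1 it was at 0.0542, 0.178 and 0.0541 CPM under the siMM-mod label and at 0.0165, 0.046 and 0 CPM under the siRE-mod label. In SKNO-1 it was at 0.271, 0.173 and 0.234 CPM and at 0.252, 0.154 and 0.287 CPM. Kasumi-1 siMM-mod 2 lay above the 2 lowest SKNO-1 libraries.

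The comparison of the line labels was chosen after these values were seen. Over 6 libraries of each line, *HBA2* averaged 0.207 ± 0.0409 CPM (SD) in SKNO-1 and 0.0201 ± 0.0184 CPM in Kasumi-1, a 10.3-fold difference of the means (exact two-sided permutation test, p = 0.00216, the smallest that 6 against 6 allows). *HBA1* averaged 0.228 ± 0.0537 and 0.0582 ± 0.0628 CPM, 3.93-fold apart (exact permutation test, p = 0.00649). As the split of reads between the 2 copies is uncertain, so is the fold of each, and their summed levels differed by 0.357 CPM. *KLF1* was on average lower in SKNO-1, at 1.09 ± 0.377 against 1.75 ± 0.546 CPM, with overlapping lines (exact permutation test, p = 0.0411). SKNO-1 holds 4 of the CD34-expressing libraries and Kasumi-1 2. The median of *KLF1* was 0.873 CPM in the CD34-expressing and 1.83 CPM in the CD34-low libraries, and the part of *CD34* in its line difference was not tested. For *GYPC*, *ITGA2B* and *GP9*, the other members compared in this way, p was 0.554, 0.264 and 0.697 (exact permutation test). None of these permutation p-values was adjusted for the number of members compared. In an edgeR fit of the line labels over all 41212 genes with a read, adjusted p was 0.141 for *HBA2* and 0.617 for *HBA1*, and no gene passed (percent called 0). Lines without overlap and higher in SKNO-1 made up 0.255% of the 23959 genes with at least 100 reads, and *HBA2* was the 1 of the 5 members with that many reads among them. The line label and any batch that follows it cannot be told apart.

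*HBB*, the beta globin gene, had the same order at a similarly low level. It had 64 reads in the 6 SKNO-1 libraries, at 0.0308 to 0.242 CPM, and 1 read in the 6 Kasumi-1 libraries. Of the 75 genes with a read on the 3 lists described below, it was the 1 gene whose lines did not overlap. The share among all genes with a read was not computed, and the 0.255% above covers only genes with at least 100 reads. Whether *HBB* has a part in the alpha globin difference was not tested.

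**Figure D3:**
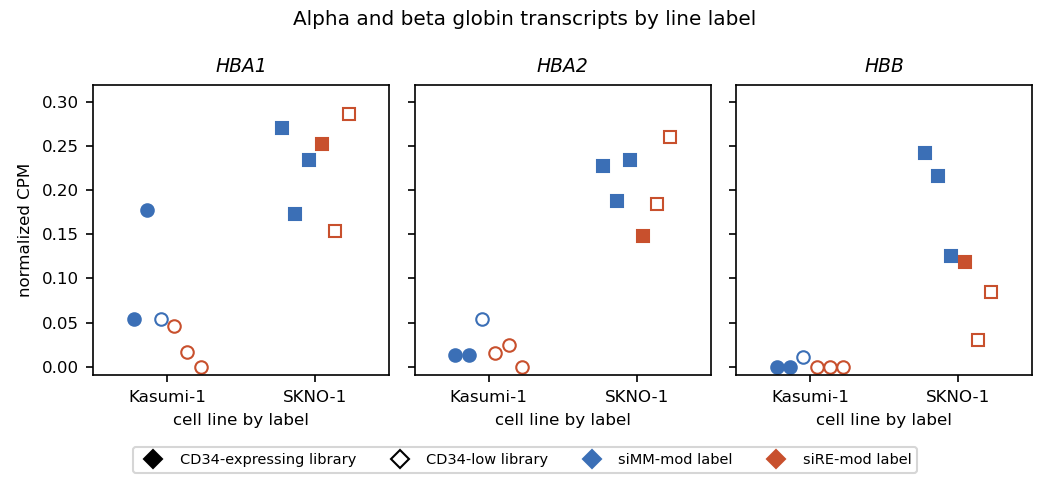
Normalized CPM (vertical axis) of *HBA1*, *HBA2* and *HBB* by line label (horizontal axis), with 1 point per library, filled where *CD34* was at 117 CPM or more and open where it was under 1 CPM. *HBA2* is at 0.148 to 0.261 CPM in SKNO-1 and at 0 to 0.0541 CPM in Kasumi-1, for filled and open points alike.

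The gamma globins were at or under the limit of detection. *HBG1* (chromosome 11, 5248079 to 5249859, minus strand) had 1 read in SKNO-1 siMM-mod 2 and 1 in SKNO-1 siRE-mod 3, and was at 0 in the other 10 libraries. *HBG2* (chromosome 11, 5253188 to 5505605, minus strand) had 1 read, in SKNO-1 siRE-mod 2, and its counted exons share 51.2% of their bases with those of *AC104389.5*. A count of 0 allows up to 3 reads, which is 0.0252 to 0.0495 CPM for *HBG1* over the libraries at 0. These limits are relative to the total counts, without TMM. No difference between labels was detectable at this depth.

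Of the platelet members other than *ITGA2B*, *PF4* (chromosome 4, 73981077 to 73982124, minus strand) had no read in the 12 libraries, which allows up to 0.0203 to 0.0495 CPM (without TMM). *GP9* (chromosome 3, 129060767 to 129062406, plus strand) had 6, 2 and 0 reads in Kasumi-1 labelled siMM-mod 1 to 3 and 0, 2 and 2 reads under the siRE-mod label. In SKNO-1 it had 3, 3 and 1 reads under the siMM-mod label and none under the siRE-mod label. Its highest level, 0.0813 CPM, was in Kasumi-1 siMM-mod 1. The limits for counts of 0 cover counting error only.

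*ITGB3*, which encodes the beta chain that pairs with the product of *ITGA2B* in the platelet receptor, did not share its pattern. Across the 12 libraries *ITGB3* had 0 to 8 reads, at 0 to 0.119 CPM. It was at 0 to 0.119 CPM in the CD34-expressing and at 0.00767 to 0.0821 CPM in the CD34-low libraries, where *ITGA2B* was at 53.1 to 90.6 CPM. *GP1BA*, which encodes the partner of GP9 in its receptor complex, was at 1.13 to 3.25 CPM in the CD34-expressing and at 0.671 to 1.34 CPM in the CD34-low libraries.

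Other genes of both lineages were taken from 3 lists. On a list of 30 megakaryocyte genes, 17 reached 600 reads over the 12 libraries and 12 were below 1 CPM in every library. edgeR called 0 of the 14 tested in Kasumi-1 and 0 of the 12 tested in SKNO-1, with 2 and 5 at an unadjusted p under 0.05 (17.9% and 10.7% of all genes tested) and 1 and 2 called by DESeq2 (8.51% and 2.73% of all). Their median log2 fold change by label was 0.66 and 0.95, beside 0.02 and 0.03 over all genes tested. Of the 17, 9 (52.9%) were higher in every CD34-low than in every CD34-expressing library, as *ITGA2B* was, and 2 (11.8%) were lower, where all 15863 genes gave 17.5% and 15.6%. These shares follow a filter on total reads, which a gene can pass through the libraries of a single side, as *SLC24A3* did through the CD34-low ones. They are therefore a description and no support for a pattern, here and for the lists below.

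The megakaryocyte genes with the widest ranges were all on the CD34-low side. *SLC24A3*, a sodium, potassium and calcium exchanger, was at 8.98 to 11.8 CPM in the CD34-low libraries and had 0 reads in the CD34-expressing ones. *VWF*, the platelet and endothelial adhesion protein, was at 2.04 to 3.25 CPM in the CD34-low libraries with more *RUNX1T1* and at 0.421 to 0.756 CPM in those with less. *LTBP1*, which binds latent TGF-beta, ran the other way on that side, at 0.421 to 0.736 and at 4.57 to 4.99 CPM, and *THBS1*, thrombospondin, was at 1.53 to 1.99 and at 2.43 to 4.66 CPM. Among the genes with the highest means, *P2RY1*, a platelet ADP receptor, was at 30.7 to 45.9 CPM in the CD34-low and at 5.96 to 8.65 CPM in the CD34-expressing libraries. *MMD* (10.9 to 17.1 against 17.2 to 24.4 CPM) was lower on the CD34-low side. *NBEAL2*, needed for alpha granules, overlapped at 42.4 to 72 CPM over all libraries. *GUCY1B1*, a subunit of the nitric oxide receptor, overlapped between the sides and was higher with more *RUNX1T1* on each, at 9.46 to 10.2 against 2.63 to 4.16 CPM and at 6.83 to 9.17 against 1.29 to 2.02 CPM.

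On a list of 40 erythroid genes, 20 reached 600 reads and 20 were below 1 CPM in every library. edgeR called 0 of the 17 tested in Kasumi-1 and 0 of the 16 tested in SKNO-1, with 7 and 5 at an unadjusted p under 0.05 (17.9% and 10.7% of all genes tested) and 4 and 1 called by DESeq2 (8.51% and 2.73% of all). Their median log2 fold change was -0.39 and -0.05. Of the 20, 5 (25%) were higher in all CD34-low and 4 (20%) in all CD34-expressing libraries, shares near the 17.5% and 15.6% of all genes.

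Among the erythroid genes, *TFRC*, the transferrin receptor, had the highest mean, at 1130 to 3080 CPM in the CD34-low and 483 to 668 CPM in the CD34-expressing libraries. It was higher with less *RUNX1T1* on the former side (2500 to 3080 against 1130 to 1300 CPM) and lower on the latter (483 to 534 against 621 to 668 CPM). *CA2*, a carbonic anhydrase, and *XK*, a red cell membrane transporter, were at 50 to 76.4 and 17.6 to 25.8 CPM in the CD34-expressing libraries. In the CD34-low libraries *CA2* was at 0.0821 CPM or less and *XK* had 0 reads. *DMTN*, a membrane skeleton protein, was at 1.87 to 2.71 CPM in the 3 CD34-low libraries with less *RUNX1T1* and at 0.0312 to 1.18 CPM in the other 9. *EPB41* (133 to 208 CPM), *UROD* (36.8 to 131 CPM) and *SLC25A37* (33.6 to 74.2 CPM), which act in the membrane skeleton, in haem synthesis and in mitochondrial iron import, overlapped between the sides.

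All 11 transcription regulators on the third list reached 600 reads over the 12 libraries. edgeR called 0 of the 11 tested in Kasumi-1 and 0 of the 10 tested in SKNO-1 by label, with 4 and 1 at an unadjusted p under 0.05 (17.9% and 10.7% of all genes tested) and 2 and 0 called by DESeq2 (8.51% and 2.73% of all). The median log2 fold changes were 0.07 and 0.14, beside 0.02 and 0.03 over all genes tested. By *CD34*, 3 of the 11 were higher in all CD34-low libraries (27.3%) and 1 in all CD34-expressing ones (9.09%), beside 17.5% and 15.6% of all genes.

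*GATA1*, which drives erythroid and megakaryocyte maturation, was at 0.0577 to 0.327 CPM in the CD34-expressing libraries. In the CD34-low libraries it was at 0.801 to 0.905 CPM with more and at 2.36 to 2.72 CPM with less *RUNX1T1*. *GATA2*, the GATA factor of stem cells and progenitors, was at 30.4 to 51.2 CPM in the CD34-expressing libraries, and at 69 to 97.8 and 305 to 351 CPM in the same 2 sets of CD34-low libraries. *ZFPM1*, the cofactor of both, was at 1.05 to 3.29 CPM against 5.78 to 12.4 CPM. These 3 were thus highest where *ITGA2B* was highest, and *LDB1*, at 81 to 115 against 57.4 to 80.6 CPM, was the 1 regulator with the direction of *GYPC*.

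The other 7 regulators overlapped between the *CD34* sides. *GFI1B*, *NFE2* and *TAL1* separated by *RUNX1T1* on each side, and how many of all genes did so was not computed. *GFI1B*, a repressor needed in both lineages, was at 0.0289 to 0.108 CPM with more and 0.653 to 0.751 CPM with less *RUNX1T1* in the CD34-expressing libraries, and at 0.0537 to 0.0865 and 11.1 to 12.3 CPM in the CD34-low ones. *NFE2*, a factor of platelet formation, was at 1.73 to 2.11 and 18 to 25.2 CPM, and at 15.4 to 22.4 and 62.6 to 70.7 CPM. *TAL1* went the other way, at 4.44 to 4.89 and 0.734 to 1.34 CPM, and at 9.01 to 11.4 and 2.71 to 3.02 CPM. *BCL11A*, a repressor of the gamma globin genes, was at 34.4 to 40.4 CPM in the CD34-low libraries with less *RUNX1T1* and at 97.6 to 139 CPM in the other 9. *HBG1* had 1 read in those 3 libraries together and *HBG2* none. *ZBTB7A*, another such repressor, ranged from 11.8 to 30.3 CPM, *LMO2* from 70.7 to 149 CPM and *FLI1* from 117 to 211 CPM.

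**Figure D4:**
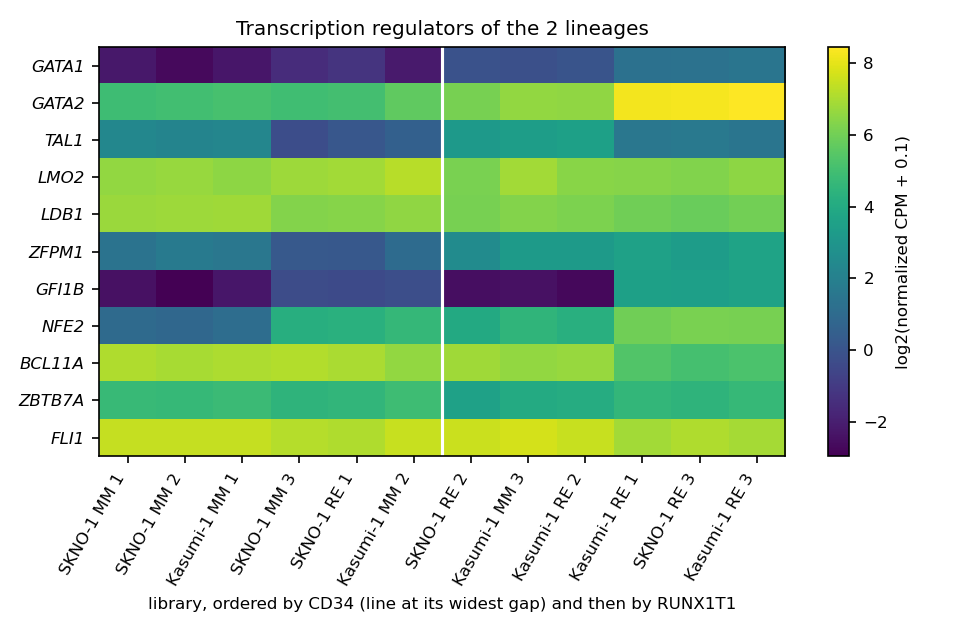
Level of the 11 regulators (rows) in the 12 libraries (columns, MM and RE for siMM-mod and siRE-mod), with colour as log2(normalized CPM + 0.1). Right of the white line *GATA1*, *GATA2* and *ZFPM1* are higher in every library than left of it, and *GFI1B* and *NFE2* are brighter in the 3 columns with less *RUNX1T1* on each side.

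The genes whose levels over the 12 libraries were most like those of a member were found by the root mean square difference of log2 CPM after removing each gene's mean, over 15862 other genes. They were *SERPINH1* (0.193), *SRD5A3* (0.193) and *FOSL2* (0.223) for *GYPC*, *SLC44A1* (0.283), *NKD2* (0.288) and *PIM1* (0.301) for *ITGA2B*, and *FARSA* (0.195), *MYADM* (0.198) and *IRF2BPL* (0.206) for *KLF1*. *SERPINH1*, for instance, was at 26 to 29.7, 12.2 to 21.7, 6.24 to 7.38 and 3.73 to 4.24 CPM over the 4 steps in which *GYPC* descended. *SLC44A1* was at 2 to 3.12 CPM in the CD34-expressing and at 48.3 to 96.3 CPM in the CD34-low libraries. No member was among the genes most like another member, and *GYPC* and *ITGA2B* differed by 3.575 on this scale.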

How the data were processed

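RNA-seq of the 12 in vitro libraries was analysed by label. The authors trimmed reads with Trim Galore 0.6.5, aligned them to GRCh38 with STAR 2.7.10a and counted them with Subread 1.6.5 (the file headers name Rsubread 1.32.4 under R 3.5.1). The deposited tables hold raw counts per gene, and the CPM and FPKM that the authors computed from them. Strand setting and multimapped reads are not given in the sources used here. Total counts were 60559466 to 147990959 per library, and a count of 0 was taken to allow up to 3 reads. Genes with 600 reads in total, the filter of the study, were tested with edgeR 4.0.16 in R 4.3.3 (TMM, quasi-likelihood, Benjamini-Hochberg, threshold 0.05), siRE-mod against siMM-mod in each line, and as an interaction over the 12 libraries. DESeq2 1.42.0, its size factors, other filters, a replicate block, a fit of all 12 libraries and leaving out each library were alternatives. The procedure was also run on simulated counts with uniform groups by label, which does not cover labelled groups that mix the *CD34* sides. The labels do not say that replicates were separate cultures, so p-values measure only the spread between libraries. Libraries were parted at the widest gap of log2 *CD34* CPM. Named are the 9 members, *CD34*, *RUNX1T1*, all 11 regulators, up to 4 genes per list by mean and 4 by range of log2 CPM (prior count 2), the 3 genes most like each member, the markers, and *HBB* and the overlapping *AC104389.5*, added after their values were seen. The members and lists were chosen with earlier results of these data known. Python 3.11.15 with pandas 2.3.3 and scipy 1.17.1 made the tables. In vivo libraries were not used here, and some genes that the naming rule takes are not reported here.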

Additional observations from a re-analysis of the deposited data

How the results depend on the processing

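Counting error limits *HBA1*, *HBA2*, *HBG1*, *HBG2*, *PF4* and *GP9*, and 3 libraries with each label limit the tests by label. Under another tool, scaling, filter, block or sample set, 48 of 51 log2 fold changes of members kept direction and side of the threshold, and 14 of 17 counts of called genes stayed at 0. Where edgeR called 0 genes, the count by DESeq2 was 1158 (Kasumi-1), 372 (SKNO-1) and 127 (line difference). It called *GYPC* in Kasumi-1 (-1.97) and SKNO-1 (-1.60) and *ITGA2B* in SKNO-1 (4.69), and the cause was not tested.

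With 1 library left out, Kasumi-1 had 0 to 4250 called genes (4250 without siMM-mod 3) and SKNO-1 had 0 to 2535 (2535 without siRE-mod 1). Without these libraries the labelled groups of each line coincided with the *CD34* sides, so those calls cannot be assigned to the siRNA label. The Kasumi-1 log2 fold change of *GYPC* lay between -2.30 and -1.48 and that of SKNO-1 between -2.05 and -1.33. For *ITGA2B* they lay between 1.3 and 5.23 and between 4.03 and 5.27, and both genes were called in the same 2 fits. The line difference of *GYPC* ranged from -0.12 (without Kasumi-1 siMM-mod 1) to 0.65 and was -0.10 without SKNO-1 siRE-mod 1. That of *ITGA2B* ranged from -0.51 (without Kasumi-1 siMM-mod 3) to 3.48. That of *KLF1* ranged from -0.24 (without Kasumi-1 siMM-mod 3) to 0.51 and was -0.08 without SKNO-1 siRE-mod 3. *KLF1* in Kasumi-1 ranged from 0.04 to 0.74, and in SKNO-1 it fell under 600 reads with any library left out, so no value was made.

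Libraries with the same replicate number did not deviate alike (correlations of deviations from the group means -0.272 to -0.0132 in Kasumi-1 and -0.246 to -0.0213 in SKNO-1). As labelled groups mix the *CD34* sides, these values cannot decide whether the libraries were paired. With the replicate number as a block, edgeR called 0 genes in each comparison, *GYPC* was at -1.78 and -1.57 and *ITGA2B* at 3.77 and 3.94 in Kasumi-1 and SKNO-1, against 1.84 and 4.73 without it, and the line difference of *ITGA2B* was 0.18 against 2.94.

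For the line labels, alternatives chosen after seeing the data gave a difference of 0.357 CPM with *HBA1* and *HBA2* summed (exact permutation test, p = 0.00216). With each library left out, *HBA2* differed by 0.176 to 0.199 CPM (exact permutation test, p = 0.00433) and *HBA1* by 0.159 to 0.194 CPM (exact permutation test, p = 0.00433 to 0.013). The p of *HBA2* is the smallest that the remaining libraries allow. Lines seen beforehand not to overlap must give it, so it adds no evidence.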
